A study of Mus musculus with 9 samples.

Results

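The 9 genes described here are those that mark hepatocytes around the central vein of the liver, or that report Wnt/beta-catenin signalling: Glul, Oat, Slc1a2, Rhbg, Lgr5, Axin2, Nkd1, Rnf43 and Tbx3. They were chosen by symbol, and 24 probe sets (the groups of short probes that report a transcript on an Affymetrix array) carry at least 1 of these symbols. One of the 24 is shared by Slc1a2 and a predicted gene and was left out, which leaves 23 probe sets of 45037. Of these 23, 17 were bright enough to be tested (on 3 or more arrays the signal exceeded that array's median), and they cover all 9 genes. The brightest probe set of each gene stands for it unless another is named.

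Livers came from 11-week-old females of the autoimmune-prone strain MRL +/+, with 1 array per mouse and 3 mice in each of 3 groups. Mice received dichloroacetyl chloride (DCAC) or dichloroacetic anhydride (DCAA) at 0.2 mmol/kg in 100 µl of corn oil by intraperitoneal injection, 2 times a week for 6 weeks. Control mice, which the sample labels call untreated and the design text describes as given only corn oil, carried no compound, and all livers were taken 24 h after the last treatment. No genetic change was made in any group. The compounds share the dichloroacetyl group and differ in the leaving group, chloride in DCAC and dichloroacetate in DCAA. The study asked how each affects liver gene expression.

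Wnt ligands and R-spondins made by endothelial cells of the central vein hold beta-catenin active in the hepatocytes next to it. Beta-catenin then works with TCF factors to switch on the pericentral programme, and portal hepatocytes, which run urea synthesis, lack it. Pericentral cells take up ammonia and glutamate that escaped the portal cells and bind them as glutamine, the reaction of glutamine synthetase (Glul). Other members of the programme limit the signal itself, among them Axin2, Nkd1 and Rnf43. A liver extract mixes all zones, so fewer cells of a zone and less RNA per cell cannot be told apart.

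The array labelled control 2 is set apart throughout. Its signals went against the label of liver: the summed signal of 11 kidney marker genes was 155686 on it and 1342 to 2229 on the other 8 arrays, while 9 hepatocyte markers summed to 18955 against 288775 to 398896. Of those 9, Fgb, Tat, Tdo2 and Ttr lay at or under its 25th percentile, and Hnf4a read 12777, within the 9429 to 15132 of the others. Tests therefore used 8 arrays, with controls 1 and 3 as the corn oil group. All 9 hepatocyte markers were above the array median on at least 3 of the 8. RNA quality was read from the control probe sets of pyruvate carboxylase, whose 3'/5' signal ratio grows as RNA degrades or labelling shortens. It was 2.85 to 3.99 on controls 1 and 3, DCAC 1 and DCAC 2. On DCAC 3 and the 3 DCAA arrays it was 6.43 to 12.8.

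For 6 of the 9 genes a window of 300 bases around an annotated start is given by RefSeq in build GRCm38.p6 (250 bases before to 50 after), in 7 windows, 2 of them for Rnf43. Each was searched on both strands for words that TCF factors prefer, CTTTGAA, or CTTTGAT, or CTTTGTA, or CTTTGTT. These windows are shown because Glul and Slc1a2 encode successive steps, uptake of glutamate and its use, and because Slc1a2 holds the single match among the 7. The match, in capitals, is CTTTGAT on the opposite strand, with its first printed base 207 bases before the start. Of 32851 such windows in the genome, 16.9% hold a match, so 1 among 7 is a description and not a site. The Glul window lies at chr1:153899679-153899978, plus strand, at the 5' end of the gene. The Slc1a2 window lies at chr2:102706188-102706487, plus strand, inside the gene record (chr2:102658239-102790784).
Glul: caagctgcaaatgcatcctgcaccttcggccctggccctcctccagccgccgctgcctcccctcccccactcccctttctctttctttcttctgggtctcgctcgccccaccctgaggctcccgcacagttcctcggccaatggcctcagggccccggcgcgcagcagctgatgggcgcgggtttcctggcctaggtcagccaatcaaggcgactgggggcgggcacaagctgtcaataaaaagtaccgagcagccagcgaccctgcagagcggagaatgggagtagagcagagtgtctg
Slc1a2: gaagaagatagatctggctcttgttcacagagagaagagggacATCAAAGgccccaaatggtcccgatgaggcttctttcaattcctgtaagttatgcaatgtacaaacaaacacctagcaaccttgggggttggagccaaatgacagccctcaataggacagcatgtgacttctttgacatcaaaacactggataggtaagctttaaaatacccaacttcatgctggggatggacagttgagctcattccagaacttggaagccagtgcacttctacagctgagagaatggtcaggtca

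None of the 9 genes passed the test in any of the 3 comparisons (limma, Benjamini-Hochberg adjusted p under 0.05 over 24531 probe sets). The share of all probe sets called was 0.0326% for DCAC against corn oil, 0.0815% for DCAA against corn oil and 0.00408% for DCAC against DCAA, so few calls were made anywhere. At an unadjusted p under 0.05 there were 2 of the 17 probe sets for DCAC, both higher, where 5.02% of all were past it (2.47% higher, 2.55% lower). For DCAA there were 3 higher and 2 lower, where 12.6% of all were past it (6.3% higher, 6.28% lower). DCAC stood above DCAA in 2 and below it in 1, where 9.28% of all were past it (4.7% above, 4.58% below). Probe sets of 1 gene are not separate results. Both with DCAC were of Tbx3, and with DCAA Tbx3 had probe sets in either direction. Counted once per gene by the brightest probe set, 1 of 9 was past it with DCAC, 3 with DCAA and 2 between the compounds. The calls with DCAA over all probe sets were 0.0693% higher and 0.0122% lower. By the brightest probe sets, the largest differences from corn oil were those of Tbx3, higher at 1.79-fold with DCAC and 2.01-fold with DCAA. Among all 17 the largest was also of Tbx3 but lower, at -1.59 in log2 with DCAA by 1439567_at. Rhbg had the largest difference between the compounds by the brightest probe sets, 1.68-fold. Glul varied least of the 9 by these, with all 8 arrays within 1.30-fold of each other, but spanned 1.69-fold by its other probe set.

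**Figure D1:**
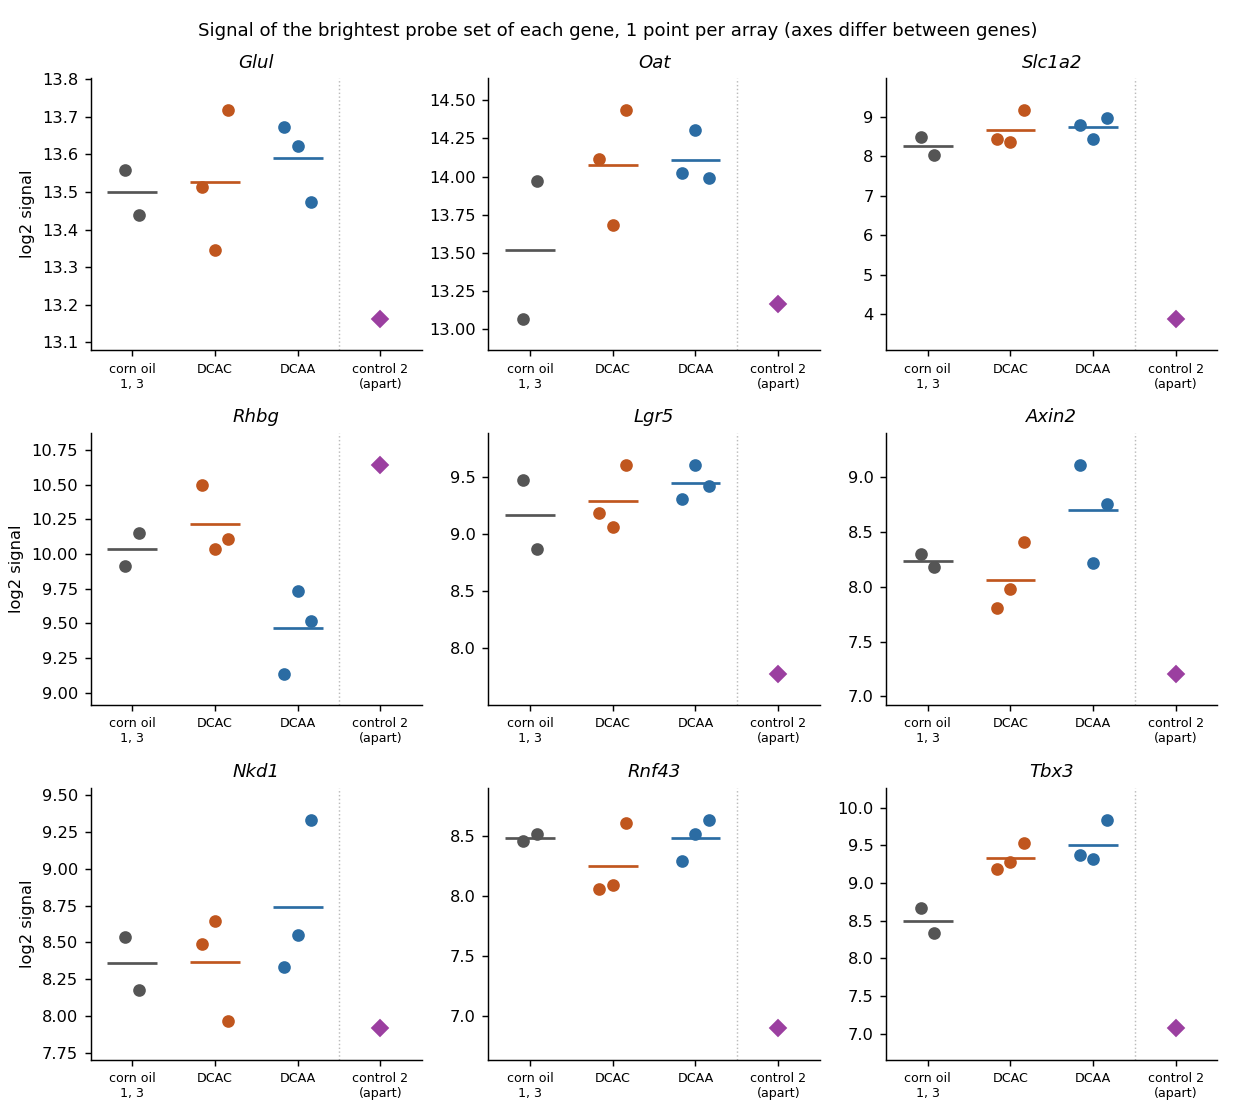
Log2 signal (vertical axis, a separate scale for each gene) of the brightest probe set of each of the 9 genes on every array, with bars at the group means of corn oil (controls 1 and 3), DCAC and DCAA; the diamond is control 2, shown apart. All treated arrays lie above both controls for Tbx3, and the 3 DCAA arrays lie below all others for Rhbg.

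**Figure D2:**
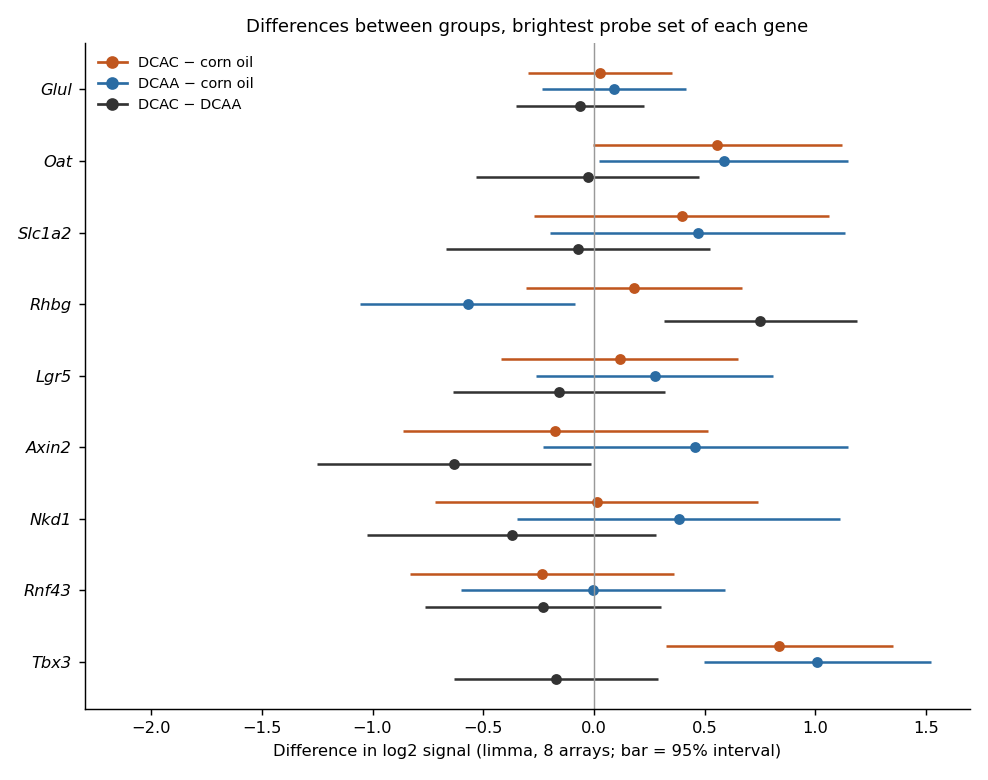
Difference in log2 signal (horizontal axis) with its 95% interval from limma on 8 arrays, for the same 9 probe sets and 3 comparisons. The intervals of Glul are the narrowest, and those of Tbx3 against corn oil lie wholly above 0, as does that of Rhbg for DCAC against DCAA.

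Glul, glutamine synthetase, is restricted in liver to the innermost ring of pericentral hepatocytes. Its brightest probe set, 1426236_a_at, read 12075 and 11100 on the corn oil arrays, 11704, 10406 and 13484 on the DCAC arrays, and 13057, 12622 and 11370 on the DCAA arrays. The groups overlap fully, and the spread among the DCAC mice spans every corn oil value. Corn oil livers averaged 11588 ± 689 (SD, n = 2), those of DCAC mice 11865 ± 1545 (SD, n = 3) and those of DCAA mice 12350 ± 876 (SD, n = 3). The log2 difference was 0.027 with DCAC (95% interval -0.30 to 0.35, limma adjusted p = 0.993) and 0.091 with DCAA (-0.23 to 0.41, 0.839). Between the compounds it was -0.063 (-0.35 to 0.23, 0.894), which limits but does not exclude a difference. The other probe set, 1426235_a_at, stood at 0.14 with DCAC and 0.28 with DCAA (adjusted p = 0.991 and 0.622) and its groups overlap too. It spread more widely, from 6624 to 11179 over the 8 arrays.

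Oat, ornithine aminotransferase, makes glutamate from ornithine and shares the pericentral ring with Glul. The 2 corn oil arrays disagreed, at 8582 and 16074. DCAC arrays read 17718, 13124 and 22207, and DCAA arrays 16652, 20224 and 16263. All DCAA values lay above both controls, the nearest by little, whereas DCAC 2 lay between the controls. The log2 difference was 0.56 (SE 0.26, limma adjusted p = 0.967) with DCAC and 0.59 (SE 0.26, 0.385) with DCAA, and -0.028 between them (interval -0.53 to 0.47). These values rest on control 1: without it they were 0.10 with DCAC and 0.13 with DCAA, and without control 3 they were 1.01 and 1.04.

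Slc1a2 encodes GLT-1, a sodium-coupled glutamate transporter best known from astrocytes, which pericentral hepatocytes also carry. Its brightest probe set, 1451627_a_at, read 358 and 264 in corn oil, 345, 330 and 580 with DCAC, and 444, 348 and 498 with DCAA. The highest value was that of DCAC 3, and the groups overlap. Log2 differences were 0.40 (SE 0.31, limma adjusted p = 0.978) with DCAC and 0.47 (SE 0.31, 0.560) with DCAA. With DCAC the value was 0.14 without DCAC 3, 0.18 without control 3 and 0.61 without control 1, and with DCAA it was 0.25 without control 3. Probe set 1439940_at stood close to these, at 0.38 with either compound. By 1438194_at the 3 DCAC arrays (315, 363 and 645) lay above both controls (289 and 229) and the DCAA arrays (470, 271 and 155) lay on both sides, with differences of 0.71 and 0.074 that did not pass. The remaining 2 probe sets of Slc1a2 were too dim to test, 1 of them under the 25th percentile of every one of the 8 arrays.

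Rhbg encodes an ammonia transporter of the Rhesus family, found on pericentral hepatocytes in liver and in the collecting duct of the kidney. Its single probe set read 966 and 1138 in corn oil, 1446, 1052 and 1104 with DCAC, and 563, 852 and 734 with DCAA. Every DCAA array was below every other of the 8 arrays, while DCAC and corn oil overlap. Means were 1052 ± 121 (SD, n = 2), 1201 ± 214 (SD, n = 3) and 716 ± 145 (SD, n = 3) in that order. DCAC stood 0.75 above DCAA in log2 (SE 0.20, interval 0.32 to 1.19), which did not pass (limma adjusted p = 0.432, unadjusted p = 0.00265). Against corn oil, DCAA stood at -0.57 (SE 0.22, adjusted p = 0.329) and DCAC at 0.18 (SE 0.22, 0.987). The 3 DCAA arrays all have a high 3'/5' ratio. DCAC 3, the 1 DCAC array with such a ratio, read 0.64 above the DCAA mean in log2.

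Lgr5 and Rnf43 act at the cell surface. Lgr5 is the receptor for R-spondins that strengthens the Wnt signal, and Rnf43 is the ubiquitin ligase that removes Wnt receptors and is itself held back by R-spondin. Lgr5 read 710 and 466 in corn oil, 582, 535 and 777 with DCAC, and 634, 779 and 684 with DCAA. The corn oil arrays span most of the treated ones. Its log2 differences were 0.12 (SE 0.25, limma adjusted p = 0.991) with DCAC and 0.27 (SE 0.25, 0.680) with DCAA. A dimmer probe set of Lgr5 was not tested.

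Rnf43 read 352 and 366 in corn oil, 266, 273 and 392 with DCAC, and 313, 368 and 399 with DCAA. DCAC 1 and 2 lay below both controls and DCAC 3 above them. The log2 differences were -0.23 (SE 0.27, limma adjusted p = 0.987) with DCAC and -0.0042 (SE 0.27, 0.997) with DCAA. The SD of the corn oil arrays was 10.2 (n = 2) and that of the DCAC arrays 70.8 (n = 3).

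Axin2 and Nkd1 are feedback inhibitors that beta-catenin itself induces: Axin2 is a scaffold of the complex that destroys beta-catenin, and Nkd1 binds Dishevelled. Axin2 read 315 and 289 in corn oil, 223, 253 and 339 with DCAC, and 554, 298 and 432 with DCAA. DCAA 1 and 3 stood above all other arrays, and DCAA 2 lay between the controls. Means were 302 ± 17.9 (SD, n = 2), 272 ± 60.2 (SD, n = 3) and 428 ± 128 (SD, n = 3). Set against DCAA, DCAC stood at -0.63 (interval -1.25 to -0.015) in log2 with a limma adjusted p of 0.534, and DCAC 3 was above DCAA 2. Against corn oil the values were -0.17 (adjusted p = 0.991) with DCAC and 0.46 (0.583) with DCAA. The second probe set, 1421341_at, was too dim to test, at 171 and 81.4 in corn oil, 18.9, 71.8 and 24.2 with DCAC and 81.6, 81.8 and 198 with DCAA.

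Nkd1 has 4 tested probe sets, and these did not share a sign. The brightest, 1440446_at, read 371 and 289 in corn oil, 360, 401 and 250 with DCAC, and 322, 375 and 646 with DCAA. Only DCAA 3 stood out. Its differences were 0.012 (SE 0.34) with DCAC and 0.38 (SE 0.34) with DCAA, with limma adjusted p of 0.998 and 0.674. Without DCAA 3 the value with DCAA was 0.085, and that between the compounds went from -0.37 to -0.073. By 1429506_at the DCAA arrays (260, 248 and 362) lay above all corn oil (188 and 234) and all DCAC arrays (164, 152 and 228), at -0.68 between the compounds (interval -1.38 to 0.022, adjusted p = 0.539). The other pair, 1417278_a_at and 1429507_at, had the opposite sign there, at 0.37 and 0.18. DCAA 3 also has the highest array median, 214 against 157 to 186 on the other 7.

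Tbx3 is a T-box transcription factor that beta-catenin induces in liver. Its brightest probe set, 1437479_x_at, read 407 and 322 in corn oil, 583, 623 and 742 with DCAC, and 660, 636 and 918 with DCAA. All 6 treated arrays lay above both controls. The log2 difference was 0.84 with DCAC (SE 0.24, interval 0.32 to 1.35, unadjusted p = 0.00392, limma adjusted p = 0.683). With DCAA it was 1.01 (SE 0.24, interval 0.50 to 1.52, unadjusted p = 0.00103, adjusted p = 0.163). It stood 138th and 144th by p among the 24531 probe sets, and between the compounds it differed by -0.17 (interval -0.63 to 0.29). The x in the name marks a probe set whose probes may also match other transcripts.

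A second probe set of Tbx3, 1448029_at, read 379 and 413 in corn oil, 546, 572 and 763 with DCAC, and 464, 704 and 573 with DCAA. Again every treated array exceeded both controls, while the compounds stood in the opposite order to the brightest probe set (DCAC minus DCAA 0.12). Against corn oil the values were 0.65 (SE 0.25, limma adjusted p = 0.933) with DCAC and 0.53 (SE 0.25, 0.397) with DCAA. Among all probe sets tested, treated arrays lay above both controls for 11.2% with DCAC and 16.1% with DCAA. Members did so in 3 of 17 probe sets with DCAC and 4 of 17 with DCAA. The reverse order was seen in 0 and 2 of 17, with 12.5% and 15.6% of all, so that either order held for 3 of 17 with DCAC (23.8% of all) and 6 of 17 with DCAA (31.8% of all). Between the compounds the arrays did not overlap in 2 of 17 (13.9% of all): Rhbg, with DCAC above (6.32% of all), and Nkd1 by 1429506_at, with DCAC below (7.63% of all).

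Another tested probe set of Tbx3, 1439567_at, stood on the other side with DCAA. It read 250 and 350 in corn oil, 414, 385 and 131 with DCAC, and 64.9, 150 and 98.3 with DCAA, at -1.59 with DCAA (SE 0.55, limma adjusted p = 0.277) and -0.11 with DCAC (SE 0.55, 0.993). DCAC stood 1.48 above DCAA (SE 0.49, interval 0.41 to 2.56, adjusted p = 0.465), the largest gap between the compounds among the 17 probe sets. The arrays with a high 3'/5' ratio, DCAC 3 and all of DCAA, were all lower than the other 4, an order shared by 5.41% of all probe sets. The brightest probe set had the opposite order, with 636 as the lowest of the high-ratio arrays and 623 as the highest of the rest, which 4.99% of all probe sets share. No other tested probe set of the 9 genes divided the arrays in this way. Within the low-ratio arrays, DCAC 1 and 2 stood 0.74 above controls 1 and 3 by the brightest probe set. For DCAA no control with a like ratio exists, and compound and ratio cannot be told apart. Its remaining 2 probe sets, dimmer still, were not tested.

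**Figure D3:**
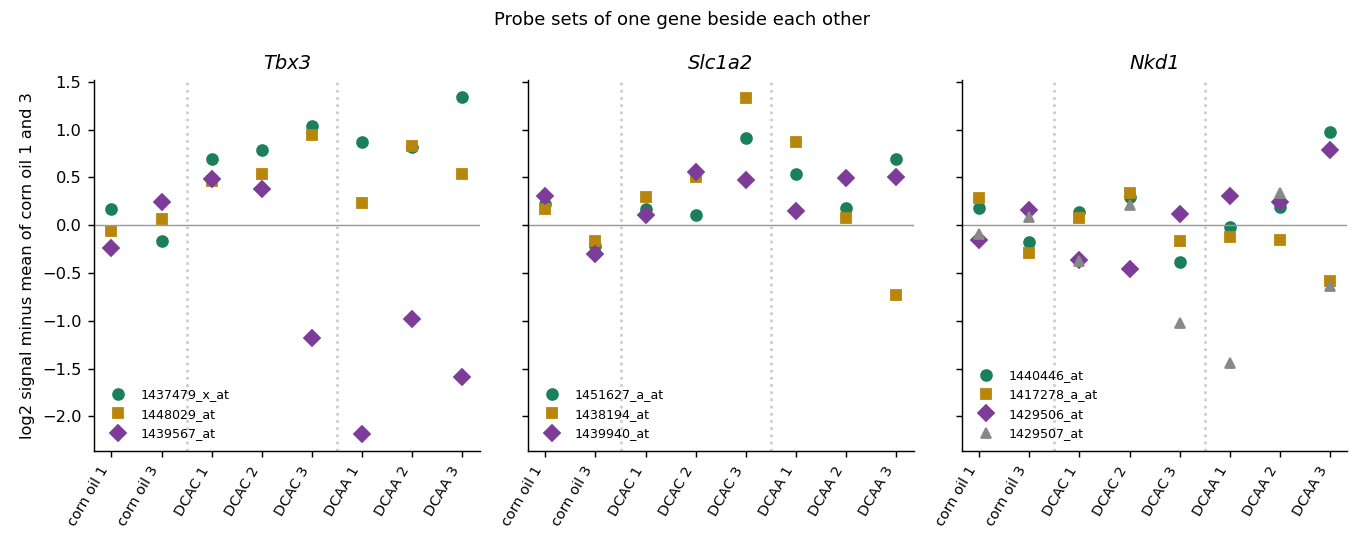
Log2 signal of each tested probe set minus its mean on controls 1 and 3 (vertical axis), for Tbx3, Slc1a2 and Nkd1 on the 8 arrays in order. The probe sets 1437479_x_at and 1448029_at of Tbx3 lie above 0 on all 6 treated arrays, and 1439567_at lies below it on DCAC 3 and the DCAA arrays.

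Nkd1 by 1429507_at, with signals of 65.0 to 222, lay just inside the brightness limit, above the median on 3 arrays. No member probe set lay just outside it. The 6 member probe sets left out exceeded the array median on 0 of 8 arrays, and without the limit no difference of theirs passed either (smallest limma adjusted p = 0.275).

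Signs were mixed across the 9 genes. With DCAC 7 of the 9 differences were positive (median 0.12, against -0.029 over all probe sets tested), and with DCAA also 7 (median 0.38, against -0.0081). Both comparisons share the corn oil arrays. These counts moved with the processing. For DCAA 6 of 9 were below 0 with the 3'/5' class as a block, and 1 to 3 otherwise. For DCAC 4 of 9 were below 0 with that block or without DCAC 3, and 5 of 9 without control 3. In the other settings for DCAC it was 1 to 3. Between the compounds 8 of 9 were negative, with a median of -0.16 against -0.015, and Rhbg was the exception. That count turned with the processing: 3 of 9 were negative when arrays were scaled to a common median, 2 of 9 with the 3'/5' class as a block, and 5 of 9 without DCAC 2. Among the 36 pairs of the 9 genes, the correlation of log2 signal over the 8 arrays was above 0 in 27, with a median Pearson's r of 0.23. These points share treatment groups and array quality. Of the other 8 genes Lgr5 was most like Glul (r = 0.73) and Nkd1 least (r = -0.46).

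Over the same 8 arrays and 12292 other genes, the 5 most like Glul were Uqcr10 (r = 0.97), Cox5b (0.96), Got2 (0.94), Stx4a (0.93) and Apbb3 (0.93). These are the highest of 12292 values from only 8 arrays, over which Glul spans 1.30-fold. Such a choice yields high values by itself, so the genes are a description and no shared function was tested. Uqcr10 and Cox5b encode subunits of the respiratory chain, and Got2 is the mitochondrial aspartate aminotransferase. As a rank, Lgr5 came 267th and Slc1a2 781st of the 12292.

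Other pericentral genes gave a mixed picture, with 1 of 15 tested higher and 0 lower with DCAC, and 0 called with DCAA. Cyp7a1, which sets the pace of bile acid production from cholesterol, rose by 2.03 in log2 with DCAC (SE 0.28, limma adjusted p = 0.0312) and stood at 0.58 with DCAA (0.420). DCAC stood 1.45 above DCAA for Cyp7a1, which did not pass (limma adjusted p = 0.285). It read 1560 and 3225 in corn oil, 7461, 8507 and 12225 with DCAC, and 3674, 2821 and 3657 with DCAA. The call was kept in 7 of 16 alternatives, where the value ran from 1.51 to 3.67 (adjusted p 0.00343 to 0.764 over the 16), and was lost without control 1 (1.51, adjusted p = 0.145), DCAC 2 (2.09, 0.0922), DCAC 3 (1.83, 0.132), DCAA 2 (2.03, 0.0577) or DCAA 3 (2.03, 0.0794). It was also lost with all 9 arrays (3.67, 0.764), without the brightness filter (2.03, 0.103), without a trend in the spread (2.03, 0.540) and with the 3'/5' class as a block (1.83, 0.133). Gstm3, a glutathione transferase, stood at -0.91 (0.392) with DCAC and -1.11 (0.0938) with DCAA. Cyp2e1, the pericentral cytochrome that oxidises ethanol, stood at 0.29 and 0.47 (0.967 and 0.235), and Ahr, the aryl hydrocarbon receptor, at -0.29 and -0.48 (0.967 and 0.262). The list's median was 0.14 with DCAC and 0.026 with DCAA.

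Periportal genes, the opposite end of the zonal axis, had 0 of 16 called with either compound, and medians of 0.045 with DCAC and 0.13 with DCAA. Ass1, argininosuccinate synthase of the urea cycle, stood at -1.38 with DCAC (limma adjusted p = 0.176) and -0.27 with DCAA (0.708). On the positive side were Igf1, the growth factor, at 0.34 and 0.54, Apoa4, an apolipoprotein, at 0.25 and 0.44, and Cyp2f2, a periportal cytochrome, at 0.15 and 0.32, none passing. The 9 hepatocyte markers had medians of 0.17 with DCAC and 0.35 with DCAA, and none was called. Their summed signal was 288775 and 301451 in corn oil, 289114 to 377976 with DCAC and 369034 to 398896 with DCAA. With DCAA 4 of the 9 were higher at an unadjusted limma p under 0.05 (6.3% of all probe sets), and with DCAC 0 were. Both medians have the sign of most differences of the 9 genes, and the markers' part in those differences was not tested.

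Most genes of the Wnt pathway itself were bright enough to test. Of 25 Wnt ligands, R-spondins and secretion factors 15 were tested, of 24 receptors and transducers 22, of 26 destruction complex genes and inhibitors 19, and of 15 other feedback and target genes 9. No gene of these lists passed with either compound or between them. Their medians lay from -0.14 to 0.10 with DCAC and from 0.0024 to 0.061 with DCAA.

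Rspo3, the R-spondin of the central vein, read 197 and 127 in corn oil, 200, 122 and 93.9 with DCAC and 213, 161 and 163 with DCAA, and the groups overlap. Wnt2, a ligand made by endothelial cells, stood at 0.37 with DCAC and 0.32 with DCAA (SE 0.50 each), with 335 on DCAC 1 and 433 on DCAA 3 as its high values. Wnt9b, the other endothelial ligand, was too dim to test. The 4 genes of this list with the smallest unadjusted limma p against corn oil had mixed signs, and none passed. With DCAC and DCAA in turn, Wnt5b stood at 0.22 and 0.89, and Wnt8b at -1.08 and -1.22. Wnt5a stood at -1.29 and -0.51, and Rspo2 at 0.28 and 0.65. Lgr4, the R-spondin receptor that hepatocytes share with many cells, stood at 0.46 and 0.42 (limma adjusted p = 0.940 and 0.369). All treated arrays (2872 to 3923) lay above both controls (2276 and 2864), DCAA 3 by little. Of all probe sets, 11.2% had this order with DCAC and 16.1% with DCAA. Fzd7, a receptor of the same list, had the reverse order (12.5% and 15.6% of all). Its treated arrays (664 to 921) lay below both controls (1069 and 1067), at -0.47 and -0.28 (limma adjusted p = 0.949 and 0.561).

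Ctnnb1, which encodes beta-catenin, read 11242 and 10199 in corn oil, 10759, 10826 and 9341 with DCAC, and 10677, 8804 and 7664 with DCAA. Its differences were -0.058 (SE 0.16, limma adjusted p = 0.992) and -0.26 (SE 0.16, 0.544). Tcf7l2, the main TCF factor of liver, stood at -0.17 and -0.57 (0.991 and 0.543). In the list of destruction complex genes and inhibitors, Sfrp4, a secreted Wnt antagonist, stood at 0.29 and 0.70 (0.978 and 0.234). Csnk1e, a casein kinase of the pathway that is not itself named as an inhibitor here, stood at -0.79 and -0.58 (0.811 and 0.392).

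Of the other target genes, Znrf3, the partner of Rnf43 in removing Wnt receptors, stood at 0.27 with DCAC and 0.054 with DCAA (limma adjusted p = 0.978 and 0.940). Ccnd1, cyclin D1, which drives cells into the cycle, was the target with the largest difference. It read 3618 and 3003 in corn oil, 1287, 1200 and 2327 with DCAC, and 2056, 1182 and 933 with DCAA. All 6 treated arrays lay below both controls, an order that 12.5% of all probe sets had with DCAC and 15.6% with DCAA. The differences were -1.11 (SE 0.33, limma adjusted p = 0.696) and -1.33 (SE 0.33, 0.168), and neither passed.

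Genes that handle glutamate, ornithine and ammonia around Glul and Oat had 0 of 16 called. Aldh18a1, which makes the precursor of ornithine and proline from glutamate, stood at 0.17 with DCAC and 1.25 with DCAA (limma adjusted p = 0.991 and 0.224), with 597, 508 and 663 on the DCAA arrays and 158 to 436 on the other 5. Glud1, glutamate dehydrogenase, stood at -0.25 and -0.52 (0.978 and 0.265). Slc38a4, an amino acid transporter, stood at 0.42 and 0.34, and Slc1a5, a glutamine transporter, at -0.86 and -1.42, none passing.

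**Figure D4:**
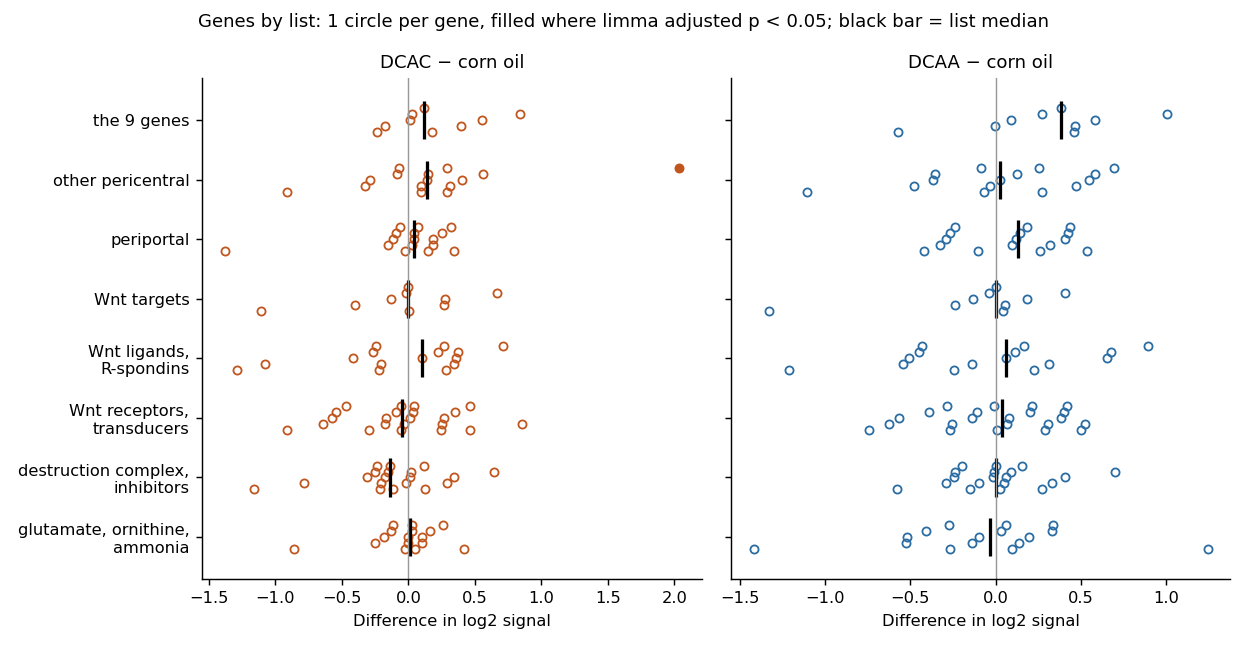
Difference in log2 signal (horizontal axis) for each tested gene of 8 lists (rows), with DCAC at left and DCAA at right; circles are genes, filled where the limma adjusted p was under 0.05, and bars are medians. Cyp7a1 with DCAC, at 2.03, is the 1 filled circle, and the 9 genes straddle 0 with either compound.

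Markers of other liver cells were read beside these values. Liver endothelial markers, which do not single out the central vein, had 0 of 9 called and medians of -0.35 with DCAC and -0.11 with DCAA. The summed signal of the 10 on the array was 7866 to 9288 in corn oil, 5120 to 9427 with DCAC and 7204 to 9936 with DCAA. Kupffer cell markers had 0 of 8 called, and summed to 7524 and 25768 in corn oil, 8153 to 12359 with DCAC and 10598 to 11455 with DCAA. The corn oil value of 25768 is that of 1 array. Stellate cell markers summed to 10995 to 11080, 9408 to 9930 and 10461 to 13985 in the same order, and 4 cholangiocyte markers to 522 to 1125, 816 to 1144 and 754 to 1238. Of 11 kidney markers, Slc12a3 was the 1 that lay at or under the 25th percentile on all 8 arrays, and their sum was 1567 to 1778, 1342 to 1885 and 1627 to 2229. None of these lists was tested as a source of the differences above.

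On control 2 the 9 genes read very differently from one another. Slc1a2 read 14.8, under the 25th percentile of that array (59.8), which puts it at least 5.14-fold below the other controls. Rnf43 (119), Tbx3 (134), Lgr5 (220) and Axin2 (148) were, like Glul and Nkd1, below all 8 other arrays, at 3.02-fold, 2.69-fold, 2.62-fold and 2.04-fold under the other controls. Glul (9173) was 1.26-fold under them and Nkd1 (241) 1.36-fold. Oat (9164) lay within the range of the others, and Rhbg (1602) lay above all of them. These are the brightest probe sets, and others differed. Nkd1 by 1429507_at read 240 on control 2, above the 65.0 to 222 of the other 8 arrays. Nkd1 by 1429506_at (187) and Tbx3 by 1439567_at (88.8) lay within the range of those arrays. The remaining tested probe sets lay below it. A single array gives no test, and it stands for no treatment.

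**Figure D5:**
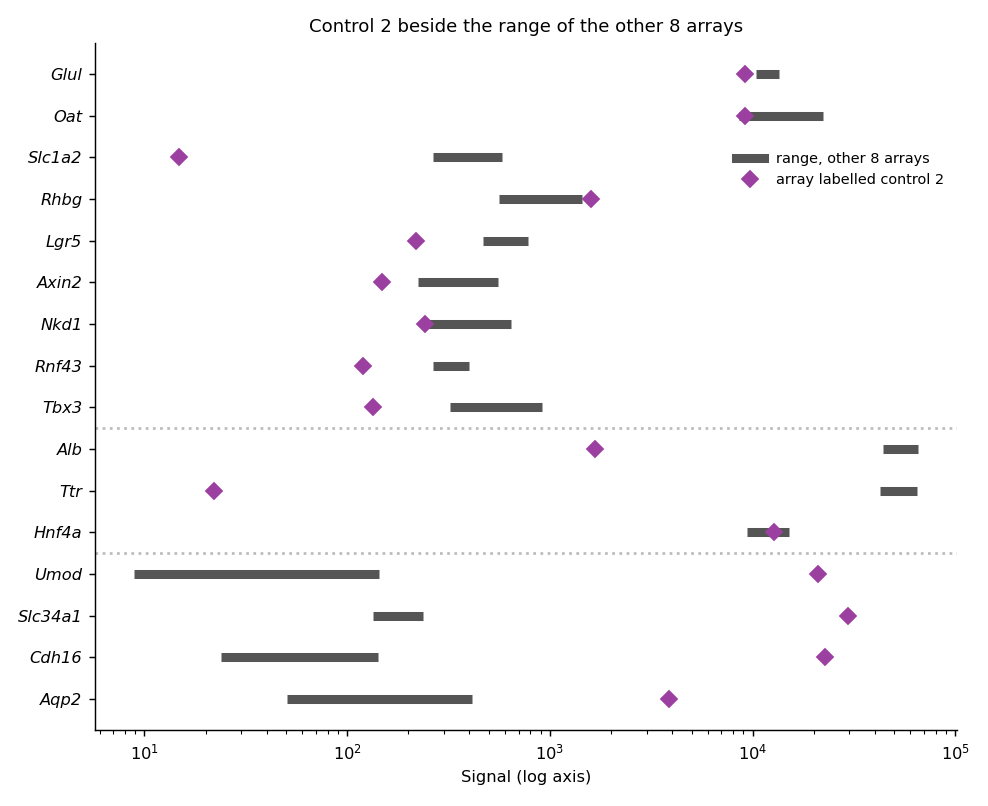
Signal (horizontal log axis) of the 9 genes, 3 hepatocyte markers and 4 kidney markers; grey bars span the lowest to the highest of the other 8 arrays and diamonds are the array labelled control 2. The 4 kidney markers lie far to the right of the bars, Slc1a2 and Ttr far to the left, and Oat and Hnf4a within them.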

How the data were processed

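Liver RNA of 9 mice was hybridised to Affymetrix arrays, 1 per mouse. The values deposited by the authors are linear signal intensities per probe set, made with GCOS (version not given) per the submitters' processing notes. Each array's mean without the top and bottom 2% was 500.0. No detection calls were used. Signals below an array's 25th percentile were raised to it and log2 was taken. The 64 manufacturer's control probe sets were left out, and the 24531 probe sets that exceeded the median of 3 or more of the 8 arrays were kept.

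A single limma model (3.58.1, R 4.3.3; lmFit, eBayes with trend) held 2 corn oil, 3 DCAC and 3 DCAA arrays, two-sided, with Benjamini-Hochberg adjustment over all probe sets kept. Gene symbols come from the array's annotation, where 34945 probe sets have 1 symbol, 932 several and 9160 none, and 34741 matched RefSeq with 0 changed.

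The 9 genes, the lists and the absence of control 2 from the tests were chosen with earlier results of these data known. Named are all members and, per pathway list, some or all of the 4 genes with the smallest p against corn oil. Also named are a few Wnt and zonation genes whatever their values (Gls2 has no probe set with a single symbol) and the 5 genes most correlated with Glul. Alternatives were all 9 arrays, quantile normalization, a common median, an offset of 32 in place of the floor, no filter, eBayes without trend, a block for the replicate number or for the 3'/5' ratio class, and each array left out in turn.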

Additional observations from a re-analysis of the deposited data

Results flagged for a closer look

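Rhbg drew attention in 2 ways. On control 2, an array outside the comparisons, it read 1601.5, above all 8 other arrays (563 to 1446) and above the controls at 966 and 1138. The 3 DCAC arrays also lay above the mean log2 signal of controls 1 and 3 and the 3 DCAA arrays below it, a gap of 0.75 in log2 between the compounds. DCAC 2 was above that mean by little, and the difference between the compounds, tested by limma, did not pass (adjusted p = 0.432). Groups of 2 and 3 arrays were too small for a check of single outlying arrays.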

How the results depend on the processing

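None of the 27 differences of the 9 genes, by their brightest probe sets, passed the limma test in any of 16 alternatives (smallest adjusted p = 0.118). Of 432 values 42 changed sign, in 17 of the 27, and the cause was not tested. Many of the 432 could not change sign. Without the filter, without the trend or without an array outside the comparison, the log2 difference stays as it was. By these probe sets the sign was kept throughout for Oat and Tbx3 against corn oil, Slc1a2 with DCAC, and Rhbg and Nkd1 with DCAA. Between the compounds it was kept for Rhbg (0.59 to 0.94), Axin2 and Nkd1. In the main fit, 1448029_at of Tbx3 and 1429506_at of Nkd1 shared these signs. Tbx3 by 1439567_at had the opposite sign against corn oil. Nkd1 by 1417278_a_at and 1429507_at did so with DCAA (-0.29 and -0.58) and between the compounds (0.37 and 0.18).

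Probe sets called with DCAC (8), with DCAA (20) and between the compounds (1) became 0, 0 and 0 with all 9 arrays (1336, 3025 and 1446 at an unadjusted p under 0.05), 1, 4 and 0 without the filter, and 0, 0 and 0 without the trend (1131, 2713 and 2181 unadjusted). They were 2, 0 and 3 when the model took the class of 3'/5' ratio as its block, where DCAA rests on DCAC 3 because no control has a high ratio, and a common median gave 12, 9 and 0. Leaving out 1 array gave 2 (without DCAC 3) to 14 (without DCAA 1), 3 (without DCAA 3) to 87 (without DCAA 1), and 0 to 2. With the replicate number as a block there were 7, 17 and 1; same-numbered mice were not paired, since their deviations correlated at -0.041 to 0.027.

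The values that changed sign were as follows. With all 9 arrays, DCAC stood at -0.023 for Rhbg, 0.17 for Axin2 and 0.30 for Rnf43, and DCAA at 0.53 for Rnf43. With the ratio block, DCAC stood at -0.069 for Glul and -0.044 for Lgr5, and DCAA at -0.20 for Glul, -0.31 for Slc1a2, -0.20 for Lgr5 and -0.055 for Axin2. DCAC minus DCAA was then 0.13 for Glul, 0.33 for Oat, 0.45 for Slc1a2, 0.16 for Lgr5, 0.13 for Rnf43 and 0.028 for Tbx3. Quantile normalization gave Glul -0.11 and -0.0072 with the compounds. A common median, under which the median of all probe sets was -0.12 for DCAA against corn oil (otherwise -0.0081) and 0.17 between the compounds (otherwise -0.015), gave Glul -0.025 with DCAA, and between the compounds 0.12 for Glul, 0.16 for Oat, 0.11 for Slc1a2, 0.027 for Lgr5 and 0.014 for Tbx3. The replicate block gave Nkd1 -0.010 with DCAC and Rnf43 0.027 with DCAA. Leaving out 1 array, DCAC gave -0.069 to 0.12 for Glul, -0.19 to 0.42 for Lgr5 and -0.17 to 0.21 for Nkd1. DCAA gave -0.029 to 0.58 for Lgr5 and -0.082 to 0.092 for Rnf43. Between the compounds the range was -0.16 to 0.027 for Glul, -0.21 to 0.17 for Oat and -0.33 to 0.074 for Slc1a2. The number of arrays limits precision: the 95% interval of a difference from corn oil reached 1.56-fold either way for the median probe set.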
